A study of Mus musculus with 6 samples.

Results

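Aminoacyl-tRNA synthetases are the enzymes that join each amino acid to its transfer RNA, and 34 genes for them were measured here out of 19938 mouse genes with a probe set of their own on the array. They were taken by gene symbol: a capital letter followed by ars, with or without 1 or 2 at the end, plus Eprs and the Fars subunit genes Farsa and Farsb, each represented by its brightest probe set. The suffix 2 marks the mitochondrial enzymes, so the set split into 18 cytosolic and 16 mitochondrial genes. All 34 were bright enough to be tested (mean log2 value over 5.81), as were 12071 genes in all.

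The arrays were Affymetrix arrays, 6 in all with 1 sample each, of colonic epithelial cells sorted as EpCAM-positive and CD45-negative. Wild-type BALB/c males of 6 weeks, fasted for 36 h and re-fed for 24 h, gave every sample. In 3 samples the mice received antibiotics during re-feeding (antibiotics), and in 3 they were left untreated (re-fed). Neither the agents nor the number of mice behind a sample is stated by the labels, and no sample of mice still fasting was analysed here. P-values therefore measure the spread between these samples, which the labels call biological replicates.

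Most amino acids need a synthetase in the cytosol, where nuclear-encoded messages are translated, and one in the mitochondrion, which translates its own few messages with its own tRNAs. Most of the pairs come from separate nuclear genes, whereas Gars and Kars each make both forms of the glycine and lysine enzyme, so their place among the cytosolic genes follows the symbol rule and not the biology. Eprs joins the glutamate and proline enzymes in 1 protein, and Farsa and Farsb encode the subunits of the cytosolic phenylalanine enzyme. Several cytosolic enzymes sit in a multisynthetase complex with the scaffold proteins Aimp1, Aimp2 and Eef1e1. Transcription of many cytosolic synthetase genes is known to respond to ATF4, the factor induced when cells run short of amino acids, through C/EBP-ATF response elements.

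The promoters of the genes with such an element are shown because they include the cytosolic genes that lay farthest below and farthest above 0 in the comparison. RefSeq windows of the mouse build GRCm38.p6, from 250 bases before to 50 after the annotated start, matched 25 of the 34 genes, 11 cytosolic and 14 mitochondrial. The response element was searched as TGATGNAA on both strands and stood in 4 of 11 cytosolic promoters (36.4%), in 0 of 14 mitochondrial promoters, and in 3.97% of 32851 promoter windows in the table. Capitals mark it in the windows of Gars (chr6:55037751-55038050, plus strand), Iars (chr13:49681880-49682179, plus strand), Tars (chr15:11399609-11399908, minus strand) and Yars (chr4:129189653-129189952, plus strand), each written along its gene's strand.
Gars: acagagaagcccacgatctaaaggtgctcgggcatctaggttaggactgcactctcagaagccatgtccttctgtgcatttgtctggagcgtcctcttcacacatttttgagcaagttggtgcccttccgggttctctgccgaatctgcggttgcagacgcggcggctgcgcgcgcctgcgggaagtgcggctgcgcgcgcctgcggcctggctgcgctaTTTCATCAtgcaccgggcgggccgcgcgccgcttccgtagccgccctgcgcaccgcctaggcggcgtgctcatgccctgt
Iars: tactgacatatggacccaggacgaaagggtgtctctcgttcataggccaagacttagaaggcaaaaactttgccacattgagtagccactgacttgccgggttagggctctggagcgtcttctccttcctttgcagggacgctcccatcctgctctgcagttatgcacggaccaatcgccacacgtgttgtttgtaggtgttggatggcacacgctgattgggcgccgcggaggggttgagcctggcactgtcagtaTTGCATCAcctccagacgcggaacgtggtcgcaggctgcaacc
Tars: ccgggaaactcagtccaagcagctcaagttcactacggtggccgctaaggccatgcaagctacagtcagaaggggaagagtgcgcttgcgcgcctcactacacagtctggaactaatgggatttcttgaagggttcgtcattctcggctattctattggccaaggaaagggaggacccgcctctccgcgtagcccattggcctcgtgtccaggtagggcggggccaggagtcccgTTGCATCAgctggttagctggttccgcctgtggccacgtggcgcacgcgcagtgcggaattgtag
Yars: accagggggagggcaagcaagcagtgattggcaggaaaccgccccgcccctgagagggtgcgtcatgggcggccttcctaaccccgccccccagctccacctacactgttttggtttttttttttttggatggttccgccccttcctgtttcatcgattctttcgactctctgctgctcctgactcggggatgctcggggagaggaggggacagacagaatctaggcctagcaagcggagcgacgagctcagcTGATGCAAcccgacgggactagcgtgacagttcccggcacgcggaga
The element read forward in Yars and on the opposite strand in the other genes. The E-box bound by Myc, searched as CACGTG, which reads the same on both strands, stood in 3 of 11 cytosolic promoters (Farsb, Iars and Tars) and in 1 of 14 mitochondrial promoters (Ears2), against 7.15% of windows. The NRF1 palindrome known from genes for mitochondrial proteins, searched on both strands as GCGC, then A and any base, then GCGC, stood in Farsb, Kars and Tars among the cytosolic genes and in Iars2 and Mars2 among the mitochondrial genes, against 4.6% of windows. In Tars the E-box and 1 of the palindromes lay next to each other, and no matches overlapped in the promoters shown. A match describes letters in a window and says nothing of binding.

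With antibiotics, none of the 34 synthetase genes reached an adjusted p under 0.05 (limma, Benjamini-Hochberg over all genes tested), where 0.058% of all genes did. The smallest adjusted p was 0.196, and 5 genes (14.7% of the set, beside 12.6% of all genes tested) had an unadjusted p under 0.05. These were Wars2, Fars2, Tars2 and Iars above 0, beside 5.3% of all genes, and Gars below 0, beside 7.32%. The 95% intervals of the 34 differences (log2, antibiotics minus re-fed) lay between -0.75 and 0.76, which corresponds to a level at most 1.68-fold lower or 1.69-fold higher.

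The values of the 3 antibiotics arrays lay wholly above or below those of the 3 re-fed arrays for 6 of the 34 genes (17.6%), beside 19.6% of all genes tested. For 4 mitochondrial genes (Wars2, Fars2, Tars2 and Aars2) they lay wholly above, beside 8.88% of all genes, and for 2 cytosolic genes (Gars and Kars) wholly below, beside 10.7%. On the probe sets used, no cytosolic gene lay wholly above and no mitochondrial gene wholly below.

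**Figure D1:**
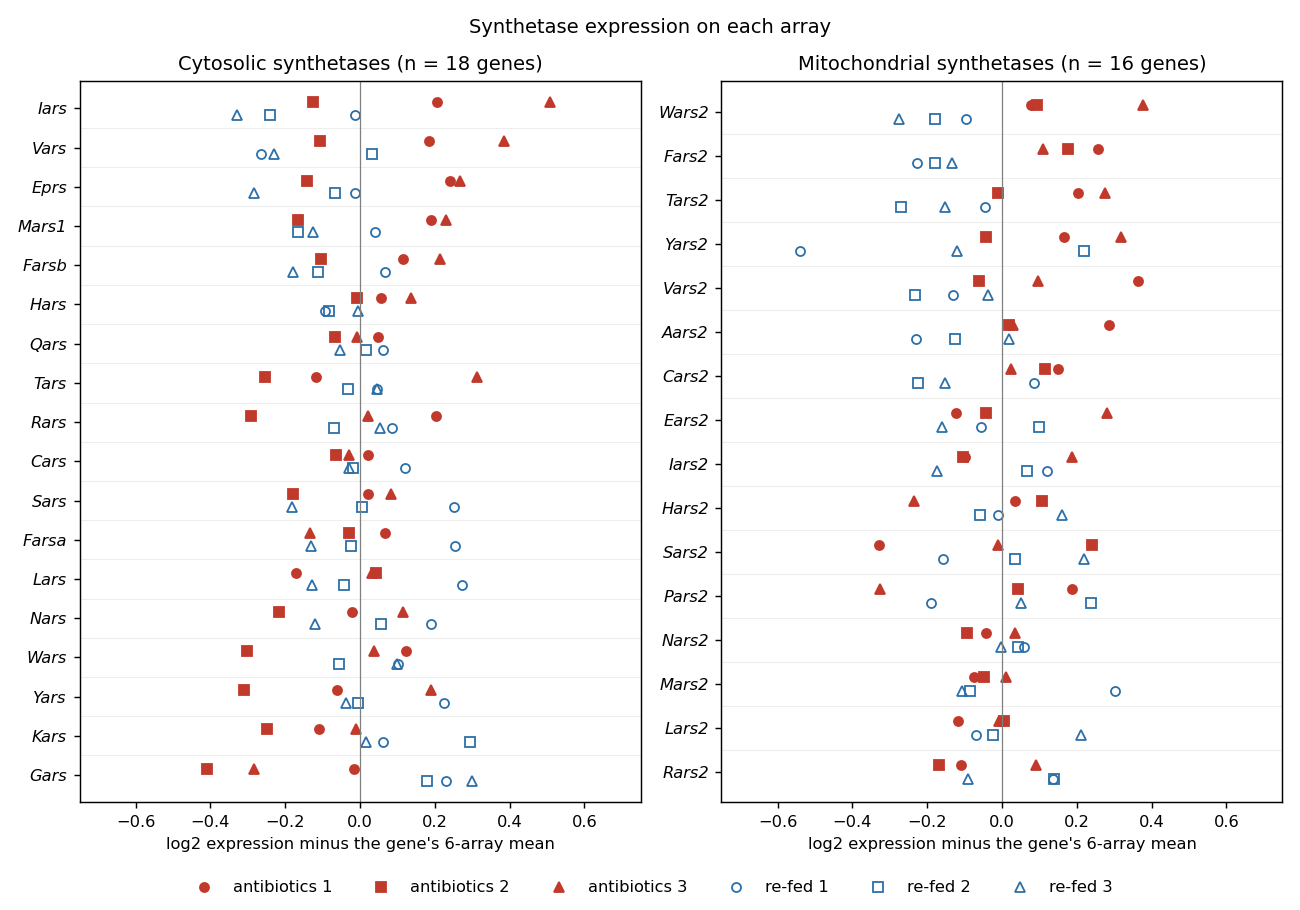
Each point is 1 array, given as log2 expression minus the gene's mean over the 6 arrays, for 18 cytosolic (left) and 16 mitochondrial genes (right), ordered by difference; filled red symbols are antibiotics arrays and open blue symbols re-fed arrays, with a shape per replicate. Gars and Kars lie wholly lower with antibiotics and Wars2, Fars2, Tars2 and Aars2 wholly higher, while antibiotics replicate 2 is the lowest of its group for 16 of the 18 cytosolic genes.

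Of the cytosolic group, 6 genes lay above 0 and 12 below, a median of -0.05, beside 50.7% of all genes tested above 0 and a median of 0.00 (0.003). The count of 6 was 13 without antibiotics replicate 2, 10 without re-fed replicate 1 and 11 in the common run, with medians of 0.03, 0.03 and 0.01. The median was -0.19 with the scaling as deposited and -0.16 with equal array medians, scalings that put the median of all genes at -0.12 and -0.08. Gars, the glycine enzyme of both compartments, stood at 9.37, 8.98 and 9.10 in antibiotics replicates 1 to 3 and at 9.62, 9.57 and 9.69 in re-fed replicates 1 to 3 (log2 expression). All 3 antibiotics arrays lay below the re-fed arrays, and the group means were 9.15 ± 0.20 and 9.62 ± 0.060 (SD, n = 3 each). The difference was -0.47 (SE 0.12), a 1.39-fold lower level, and did not pass over all genes (limma, adjusted p = 0.196). Within the common run, the 4 arrays whose deposited values bear the mark of 1 shared normalisation (antibiotics replicates 1 and 2, re-fed replicates 2 and 3), it was -0.45 (adjusted p = 0.183).

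Kars, the lysine enzyme of both compartments, stood at 9.16, 9.02 and 9.26 with antibiotics and at 9.33, 9.56 and 9.28 without. The gap between the groups was narrow, since antibiotics replicate 3 lay just under re-fed replicate 3. The difference was -0.25 (SE 0.12, adjusted p = 0.427). Without Gars and Kars, the 16 genes with only a cytosolic product had 6 above and 10 below 0, a median of -0.04, and none whose groups were separate.

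Iars, the isoleucine enzyme, had the largest positive difference of the cytosolic set. It stood at 8.18, 7.84 and 8.48 with antibiotics and at 7.96, 7.73 and 7.64 without. The groups overlapped, because antibiotics replicate 2 lay below re-fed replicate 1, and the difference was 0.39 (SE 0.16, adjusted p = 0.371). A second probe set of Iars, not used in the fit because it was dimmer, differed by 0.36, and there the antibiotics arrays (8.11, 7.84 and 8.19) lay wholly above the re-fed arrays (7.73, 7.76 and 7.58).

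Vars, the valine enzyme, stood at 7.95, 7.66 and 8.15 with antibiotics and at 7.50, 7.80 and 7.54 without, a difference of 0.31 (SE 0.15). Within the 4 arrays of the common run the difference was 0.14. Eprs stood at 8.57, 8.19 and 8.59 with antibiotics and at 8.31, 8.26 and 8.04 without (0.24, SE 0.14). In both genes antibiotics replicates 1 and 3 lay above every re-fed array, and replicate 2 among them.

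Mars1, the methionine enzyme, also had antibiotics replicates 1 and 3 highest, at 7.99, 7.63 and 8.02 with antibiotics and 7.84, 7.63 and 7.67 without (0.17, SE 0.13). Hars, the histidine enzyme, stood at 7.88, 7.82 and 7.96 with antibiotics and 7.73, 7.74 and 7.82 without (0.12, SE 0.098). Of the phenylalanine subunits, Farsb stood at 7.65, 7.43 and 7.75 with antibiotics and at 7.61, 7.43 and 7.36 without, and Farsa at 7.45, 7.36 and 7.25 with antibiotics and at 7.64, 7.36 and 7.25 without. The subunit genes differed by 0.15 (Farsb) and -0.07 (Farsa), neither past the test and with overlapping groups, although their products form 1 enzyme.

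The other 9 cytosolic genes (Yars, Wars, Nars, Lars, Cars, Sars, Rars, Tars and Qars) lay between -0.12 and -0.02. Each had overlapping groups and an adjusted p between 0.765 and 0.963. Qars, the glutamine enzyme, which has no mitochondrial counterpart in mammals because mitochondria make their glutaminyl-tRNA by another route, had the smallest standard error of them, with a difference of -0.02 and a 95% interval from -0.24 to 0.20. Among the 11 cytosolic genes with a promoter window, those with the C/EBP-ATF element differed by -0.47 (Gars), 0.39 (Iars), -0.04 (Tars) and -0.12 (Yars). No window was matched for Vars, Hars, Wars, Nars, Lars, Cars and Rars, so these were not searched.

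The 7 genes of the multisynthetase complex measured here (Eprs, Iars, Kars, Lars, Mars1, Qars and Rars) had 3 above and 4 below 0, a median of -0.02. The other 11 cytosolic genes had 3 above and 8 below, a median of -0.05. Of the scaffold genes, Aimp2 differed by 0.24 (SE 0.13), Eef1e1 by 0.12 (SE 0.16) and Aimp1 by 0.01 (SE 0.14), all with overlapping groups.

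Of the mitochondrial group, 8 genes lay above 0 and 8 below, a median of 0.03, which turned to -0.03 with the scaling as deposited, where the median of all genes was -0.12. Fars2, the mitochondrial phenylalanine enzyme, stood at 8.11, 8.03 and 7.97 with antibiotics and at 7.63, 7.68 and 7.72 without. The groups were well apart, with means of 8.04 ± 0.073 and 7.68 ± 0.047 (SD, n = 3 each). The difference was 0.36 (SE 0.098), a 1.28-fold higher level, and did not pass over all genes (limma, adjusted p = 0.212). In the common run it was 0.37 (adjusted p = 0.144).

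Wars2, the mitochondrial tryptophan enzyme, stood at 7.07, 7.08 and 7.36 with antibiotics and at 6.89, 6.81 and 6.71 without. The groups did not overlap, and the difference was 0.37 (SE 0.12, adjusted p = 0.268). Tars2, for threonine, stood at 7.81, 7.59 and 7.88 with antibiotics and at 7.56, 7.33 and 7.45 without, again with separate groups (0.31, SE 0.12, adjusted p = 0.325). In the common run these genes differed by 0.31 each, with adjusted p of 0.19 (Wars2) and 0.236 (Tars2).

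Vars2, the mitochondrial valine enzyme, stood at 7.91, 7.49 and 7.64 with antibiotics and at 7.42, 7.32 and 7.51 without, and re-fed replicate 3 lay just above antibiotics replicate 2. The difference was 0.27 (SE 0.13). Aars2, for alanine, stood at 7.20, 6.93 and 6.94 with antibiotics and at 6.68, 6.79 and 6.93 without (0.22, SE 0.12). Its groups were separate only in the third decimal, antibiotics replicate 2 at 6.929 and re-fed replicate 3 at 6.927.

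Cars2, for cysteine, stood at 7.76, 7.72 and 7.63 with antibiotics and at 7.69, 7.38 and 7.46 without (0.19, SE 0.11), the groups overlapping through re-fed replicate 1. Yars2, for tyrosine, stood at 6.87, 6.66 and 7.02 with antibiotics and at 6.16, 6.92 and 6.58 without. Its difference of 0.30 (SE 0.18) was 0.10 (0.099) without re-fed replicate 1, where it was low, and 0.01 in the common run. Rars2, for arginine, had the lowest difference of the mitochondrial set (-0.12, SE 0.12). It stood at 7.34, 7.28 and 7.54 with antibiotics and at 7.59, 7.59 and 7.36 without.

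The other 8 mitochondrial genes (Lars2, Nars2, Ears2, Mars2, Hars2, Pars2, Sars2 and Iars2) lay between -0.08 and 0.08. All had overlapping groups and an adjusted p between 0.811 and 0.984. The 7 mitochondrial genes that differed by 0.19 or more in this fit held both structural classes of synthetase, class I (Wars2, Vars2, Cars2 and Yars2) and class II (Fars2, Tars2 and Aars2).

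**Figure D2:**
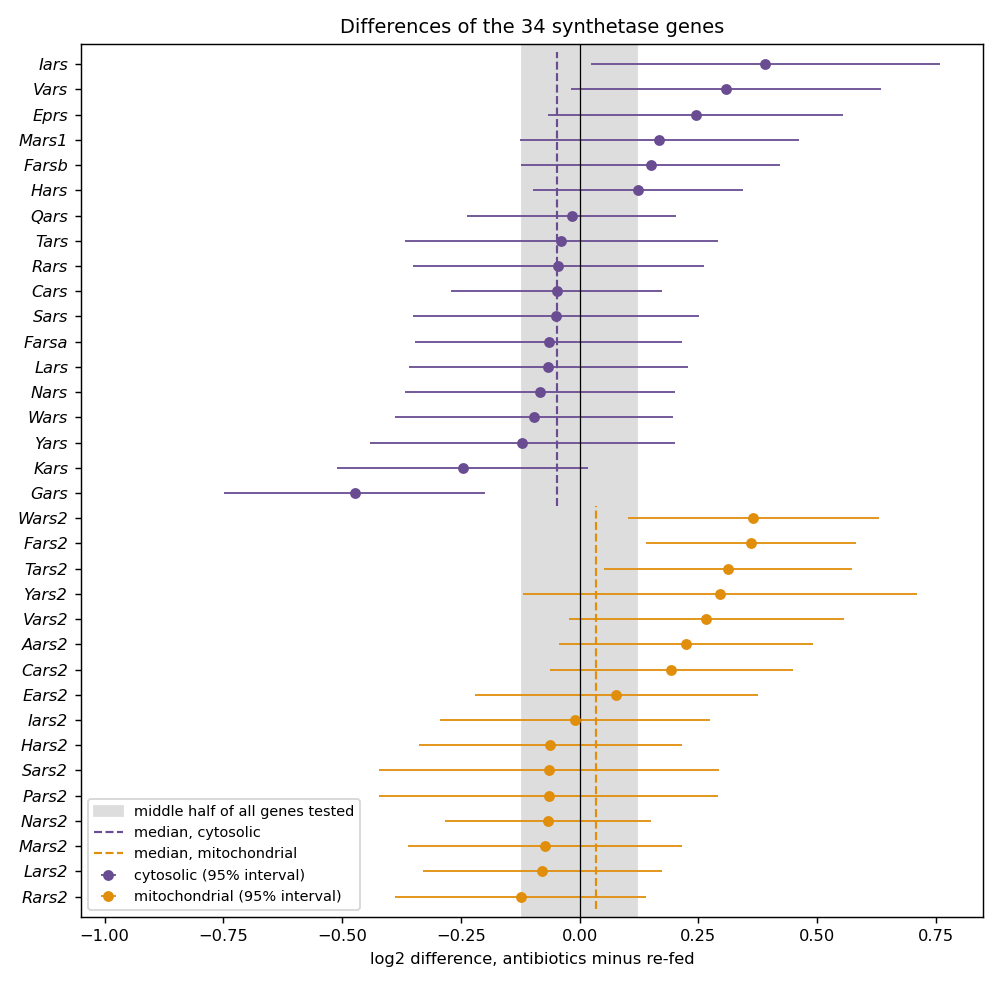
Log2 difference (antibiotics minus re-fed, x axis) of each of the 34 genes with its 95% interval from limma; dashed lines are the medians of the cytosolic (-0.05) and mitochondrial (0.03) genes after quantile normalisation, the mitochondrial one turning to -0.03 with the scaling as deposited, where all genes have -0.12, and the grey band spans the quartiles of all genes tested (-0.12 to 0.12). All but 5 intervals cross 0, and none of the genes passed after adjustment.

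Set against each other, the cytosolic median minus the mitochondrial median was -0.08. It was -0.01 within the common run, where 11 of 18 cytosolic and 9 of 16 mitochondrial genes lay above 0, and 0.02 with array weights. It was -0.16 as deposited and with equal array medians, and -0.17 without antibiotics replicate 1. The quartiles of the differences were -0.08 and 0.14 for the cytosolic and -0.07 and 0.27 for the mitochondrial genes, beside -0.12 and 0.12 for all genes tested.

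Within an amino acid, the cytosolic and mitochondrial genes could be followed against each other on the same array, 16 pairs in all, with Eprs paired to Ears2 and Pars2 and both Fars subunits to Fars2. The value described is the cytosolic minus the mitochondrial log2 value, centred on its mean over the 6 arrays, so that only its change counts and not the level of either probe set. It was lower with antibiotics in 7 pairs and higher in 9, with a median change of 0.01. In 9 pairs the 2 genes differed in opposite directions.

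The groups were separate in 5 of the 16 pairs; the 16 are not independent, as Fars2 and Eprs each enter 2. No such share was computed for pairs of other genes, so the count is a description. For Wars and Wars2 the centred value was 0.04, -0.40 and -0.34 with antibiotics and 0.20, 0.12 and 0.37 without, a change of -0.46. For Farsa and Fars2 it was -0.19, -0.21 and -0.24 with antibiotics and 0.48, 0.16 and 0.00 (0.003) without, a change of -0.43. Tars with Tars2 (-0.35) and Cars with Cars2 (-0.24) were also separate and lower.

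In each of those 4 the mitochondrial gene was the one above 0 and the cytosolic gene lay between -0.10 and -0.04. The opposite arrangement held for Iars and Iars2, where the value was 0.31, -0.02 and 0.32 with antibiotics and -0.14, -0.31 and -0.16 without, a change of 0.40. Farsb with Fars2 changed by -0.21 with overlapping groups, so the phenylalanine subunits did not share the separation. These values are described without a test.

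**Figure D3:**
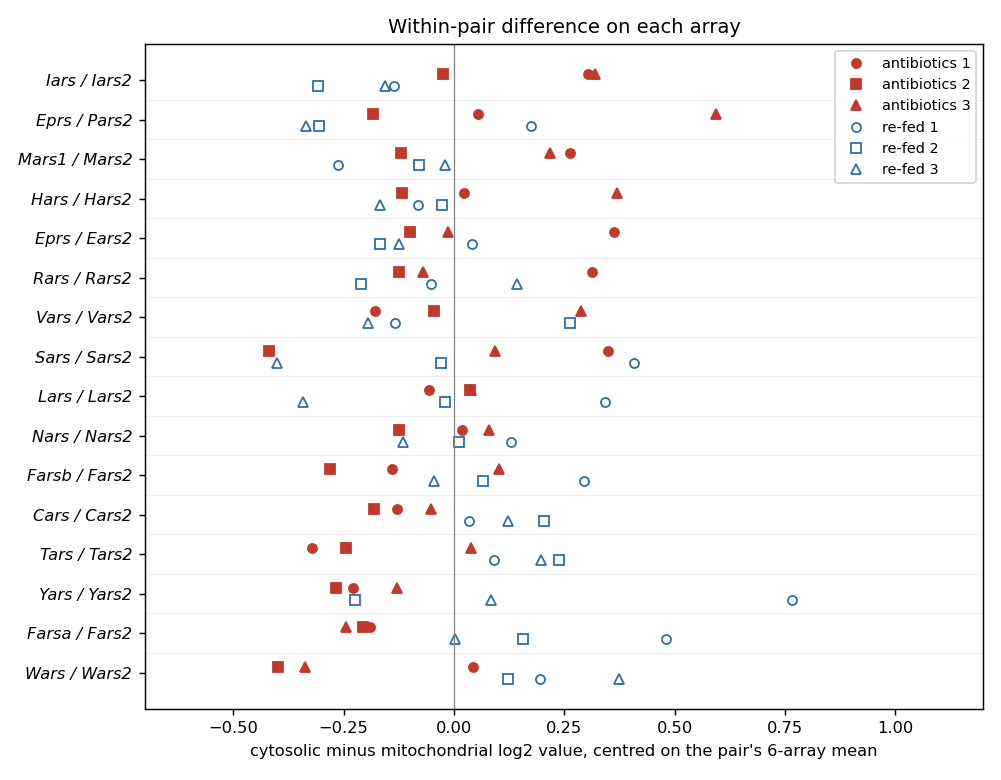
For each cytosolic and mitochondrial pair, points give the cytosolic minus the mitochondrial log2 value on each array, centred on the pair's mean over 6 arrays (x axis); filled red symbols are antibiotics arrays and open blue symbols re-fed arrays. The pair of Iars lies wholly higher with antibiotics and those of Cars, Tars, Farsa and Wars wholly lower, and the other 11 overlap.

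The cytosolic genes varied together between arrays of the same group. Antibiotics replicate 2 was the lowest of its group for 16 of 18 cytosolic genes (88.9%), beside 32.5% of all genes tested, and for 7 of 16 mitochondrial genes. Re-fed replicate 1 was the highest of its group for 14 of 18 cytosolic genes (77.8%), beside 39.4% of all genes. The median deviation of the cytosolic genes from their 6-array means was 0.05, -0.15 and 0.10 on antibiotics replicates 1 to 3 and 0.08, -0.03 and -0.09 on re-fed replicates 1 to 3. The 2 groups overlapped fully, and the spread inside each was larger than the difference between them.

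For the mitochondrial genes the same median was 0.06, -0.00 (-0.0025) and 0.06 with antibiotics and -0.06, -0.04 and -0.10 without. Every antibiotics array lay above every re-fed array after quantile normalisation. As deposited the same medians were 0.18, 0.11 and -0.35 with antibiotics and -0.20, 0.16 and 0.03 without, and the groups overlapped. Relative to the median of all genes on each array, the values as deposited were 0.05, -0.02 and 0.11 with antibiotics and -0.07, -0.03 and -0.12 without, again with every antibiotics array above every re-fed array.

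Other lists were read on the same scale because they moved with the arrays. Genes of Myc and ribosome biogenesis (20 genes) had medians of 0.17, -0.01 and 0.30 with antibiotics and -0.06, -0.11 and -0.33 without. Markers of dividing cells (6 genes) had 0.16, -0.05 and 0.62 with antibiotics and -0.47, -0.08 and -0.21 without. For these 2 lists, too, every antibiotics array lay above every re-fed array. In both, as in the cytosolic and also the mitochondrial synthetases, antibiotics replicate 2 was the lowest and replicate 3 the highest of its group. The re-fed arrays were not ordered alike. Re-fed replicate 1 was the lowest of its group for the dividing-cell markers (-0.47) but the highest for the cytosolic synthetases (0.08) and the Myc list (-0.06). On the linear scale the summed level of the dividing-cell markers was 1996 to 3100 with antibiotics and 1746 to 1976 without, groups kept apart by the step between 1976 and 1996, and its part in the synthetase values was not tested. The median difference of these markers was 0.52, against 0.25 in the common run and 0.32 without antibiotics replicate 3. In these bulk samples, fewer cells of a type and less RNA per cell cannot be told apart.

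**Figure D4:**
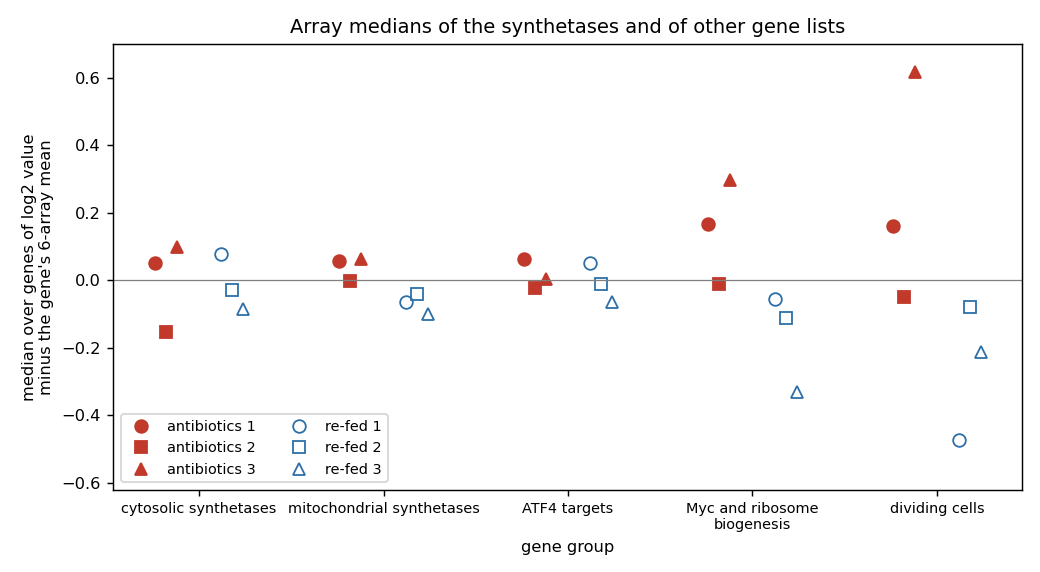
Median over the genes of a list of the log2 value minus the gene's 6-array mean (y axis), for each array (filled red, antibiotics; open blue, re-fed; a shape per replicate). After quantile normalisation the cytosolic synthetases and the ATF4 targets overlap between groups, and the mitochondrial synthetases lie slightly apart. As deposited the mitochondrial synthetases overlap, and their median difference turns to -0.03 where all genes have -0.12. The 20 genes of Myc and ribosome biogenesis (-0.33 to 0.30) also lie apart. So do the dividing-cell markers, narrowly, with antibiotics replicate 2 at -0.05 and re-fed replicate 2 at -0.08.

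The rest of the translation pathway was read from lists, beside 0.058% of all genes called. Medians given as deposited stand beside a median of -0.12 for all genes under that scaling. With array weights, 8 of 19 genes of Myc and ribosome biogenesis, 4 of 23 ATF4 targets and 2 of 19 initiation factors passed. These counts stand beside 1169 of all 12071 genes tested, a share close to that of the initiation factors. The counts of 0 below are those of the fit without weights. Of 23 targets of ATF4 other than synthetases, 0 were called, 12 lay above and 11 below 0, and the median was 0.00 (0.0025), or -0.04 with the scaling as deposited and 0.10 in the common run. Atf4 itself stood at 7.94 ± 0.012 with antibiotics and 7.73 ± 0.099 without (SD, n = 3 each), a difference of 0.21 (SE 0.10, adjusted p = 0.427). Asns, the asparagine synthetase that ATF4 induces, differed by 0.27 (SE 0.17, adjusted p = 0.537) with overlapping groups. Members with the smallest p were Cbs, of cysteine synthesis (0.52, SE 0.12), Vldlr, a lipoprotein receptor (-0.43, SE 0.12), and Shmt2, the mitochondrial serine hydroxymethyltransferase (0.43, SE 0.17).

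Of 19 genes of Myc and ribosome biogenesis tested, 0 were called, 18 lay above 0 and the median was 0.29 (0.15 as deposited). The antibiotics arrays lay wholly above for 10 of the 19 (52.6%), beside 8.88% of all genes, and wholly below for 0. An unadjusted p under 0.05 (limma) with a difference above 0 was found for 10, beside 5.3% of all genes. Nop56, a nucleolar protein (0.64, SE 0.14, adjusted p = 0.127), Srm, the spermidine synthase (0.70, SE 0.16, adjusted p = 0.15), and Polr1b, a subunit of RNA polymerase I (0.56, SE 0.14, adjusted p = 0.183), had the smallest p. Myc stood at 7.59 ± 0.49 with antibiotics and 7.19 ± 0.37 without (0.40, SE 0.25), and the difference was 0.14 without antibiotics replicate 3, 0.63 without antibiotics replicate 2 and 0.20 without re-fed replicate 3.

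Of 19 cytosolic initiation factors, 13 lay above 0, with a median of 0.07 that turned to -0.09 as deposited, and 0 were called. Among subunits of eIF2B, the exchange factor that restores active eIF2, Eif2b1 differed by 0.36 (SE 0.14) and Eif2b3 by -0.44 (SE 0.18), and Eif2b3 passed within the common run (-0.71, adjusted p = 0.0412). Eif3d, a subunit of eIF3, differed by 0.25 (SE 0.11). Of 7 elongation and termination factors, 5 lay above 0 (median 0.11, and -0.04 as deposited), with Eef1d at 0.18 (SE 0.096), Eef1a1 at 0.15 (SE 0.12) and Eef1b2 at 0.14 (SE 0.14).

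Of 17 mitochondrial translation factors and helpers of tRNA charging, 9 lay above and 8 below 0, with a median of 0.02 (-0.14 as deposited) and 0 called. The subunits of the amidotransferase that makes mitochondrial glutaminyl-tRNA differed by 0.25 (Gatb, SE 0.14), -0.10 (Gatc, SE 0.10) and -0.22 (Qrsl1, SE 0.11), none past the test, and Gatb by 0.09 in the common run. Trmt5, a tRNA methyltransferase, differed by -0.24 (SE 0.12). Of 9 synthetase-like and tRNA-processing genes outside the symbol rule, 5 lay above 0 (2 as deposited) and 0 were called; the smallest p were those of Prorsd1, a homolog of a tRNA-editing domain (-0.15, SE 0.10), Elac1, a tRNA nuclease (0.20, SE 0.15), and Sepsecs, of selenocysteine synthesis (-0.12, SE 0.10). The synthetase-like Tarsl2 was dim, with a mean of 5.01.

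Marker genes bore on the sort. Epcam stood at 12.12 ± 0.065 with antibiotics and 12.16 ± 0.11 without (SD, n = 3 each), and Ptprc, which encodes CD45, was dim at a mean of 5.42. Of 10 leukocyte markers 8 were dim, and their summed linear level was 455.5 to 473.8 with antibiotics and 450.6 to 476.6 without. For 8 markers of stroma and endothelium, 3 of them dim, the sum was 568.9 to 639.9 with antibiotics and 554.9 to 614 without. For 6 plasma cell markers, 3 of them dim, it was 2565 to 2848 with antibiotics and 2756 to 2822 without. These ranges overlapped between the groups. The plasma cell sum rested mainly on Xbp1 (mean 10.56 with antibiotics, 10.45 without) and Sdc1 (9.95 and 10.25). Jchain, Mzb1 and Tnfrsf17 were dim, at means of 3.91, 5.76 and 5.30. The sum of 9 pan-epithelial markers was 48060 to 51650 with antibiotics and 53240 to 55080 without, and that of 6 goblet cell markers 42660 to 48800 with antibiotics and 47190 to 53790 without. The pan-epithelial sums did not overlap between the groups. The 4 pan-epithelial markers wholly lower with antibiotics were keratins, Krt18 (-0.59), Krt20 (-0.46), Krt19 (-0.15) and Krt8 (-0.07), with 0 called. Groups overlapped for Epcam (-0.04), Cdh1 (-0.03), Cldn7 (-0.03), Cldn3 (0.08) and Vil1 (-0.17). The part of the marker sums in the synthetase values was not tested.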

How the data were processed

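Values of 35557 probe sets on 6 arrays were deposited by the authors as log2 expression after RMA, per the submitters' processing notes, with no version or annotation stated. In the platform annotation 21789 probe sets named 1 gene. The probe set that names Aars together with Exosc6 was left out by the symbol rule.

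Array medians as deposited ran from 5.63 to 6.17, so the 23410 probe sets with a gene were quantile normalised. Pairs among antibiotics replicates 1 and 2 and re-fed replicates 2 and 3 shared 372 to 435 distinct values. Re-fed replicate 1 shared 154 to 198 with those arrays, and antibiotics replicate 3 shared 42 to 67 with any other array. These counts are the basis of the common run, inferred from values and not from labels. Antibiotics replicate 3 also had the lowest median (5.63) and held 10829 distinct values, against 34568 to 34596 on the other arrays. The cause was not tested. The brightest probe set stood for a gene, and a gene was tested if its mean reached 5.81, the 40th percentile over probe sets with a gene.

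The comparison used limma 3.58.1 (R 4.3.3) with its moderated, two-sided test, no block and Benjamini-Hochberg adjustment over 12071 genes at a threshold of 0.05, and was checked on simulated data. Errors are SDs or limma's standard errors, and the number of arrays limits the precision. Members, lists, motifs and tests were chosen with earlier results of these data known. Values per array are given for the 8 genes of each compartment with the smallest p, and for Eprs, Gars, Kars and both Fars subunits. Each pathway list gives its 3 genes with the smallest p, with Atf4, Asns, Myc, Epcam and Ptprc in any case. The order of arrays within groups, the synthetase classes and the second Iars probe set were described after values were seen.

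Same-numbered arrays were not paired (correlations of deviations from the group means 0.02, -0.03 and -0.22). Alternatives were other scalings, filters on dim probe sets, the mean of all probe sets of a gene, array weights, the common run, a replicate block and leaving out each array. The scaling as deposited within the common run was added after seeing the data.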

Additional observations from a re-analysis of the deposited data

How the results depend on the processing

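None of the 34 genes was called in any of 15 alternatives except the limma fit with array weights. There Fars2 (0.41, adjusted p = 0.0157), Tars2 (0.38, adjusted p = 0.0295), Vars2 (0.44, adjusted p = 0.036) and Iars (0.42, adjusted p = 0.0386) passed. That was 4 of the 34 genes, beside 1169 of all 12071 genes tested, a similar share when direction is ignored. All 4 were higher with antibiotics, as were 502 of the 1169. Over all alternatives the adjusted p ran from 0.0157 to 0.9997 for Fars2. The upper end came from the limma fit as deposited, where every synthetase gene had the same standard error (0.2678). The sign was the same throughout for 16 genes, 7 cytosolic (Gars, Iars, Vars, Kars, Eprs, Mars1 and Farsb) and 9 mitochondrial (Fars2, Wars2, Tars2, Vars2, Aars2, Cars2, Yars2, Rars2 and Nars2), and changed in at least 1 alternative for 18, uncalled on both sides.

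The number of genes called, 7 in the fit reported, was 45 as deposited, 75 as deposited within the common run, 62 with equal array medians, 2 with no filter, 43 with the stricter filter, 54 in the common run and 1169 with array weights. Leaving out 1 array gave 0 to 11. The fit with 0 left out antibiotics replicate 1, and 1040 genes had an unadjusted p under 0.05 in it. With the replicate block 7 genes were called, as without it, and 0 of 6 arrays correlated best with their own number.

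The cytosolic median was -0.19 as deposited, where the median of all genes was -0.12. The mitochondrial median turned to -0.03 (-0.0299) as deposited and to -0.04 (-0.036) with the stricter filter, which left 12 mitochondrial genes, 5 above 0. Relative to all genes, the medians as deposited were -0.08 (cytosolic) and 0.09 (mitochondrial). The cytosolic minus the mitochondrial median was 0.024 with array weights. Cytosolic genes above 0 numbered 12 with array weights and 11 in the common run, against 6. Without 1 array in turn, the cytosolic median was -0.07 to 0.03, the mitochondrial median 0.022 to 0.11 and their difference -0.17 to -0.04; 6 to 13 cytosolic genes and 9 to 11 mitochondrial genes lay above 0, and the cytosolic count was 13 without antibiotics replicate 2 and 10 without re-fed replicate 1. The causes were not tested.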
